A study of Mus musculus with 19 samples.

Results

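Livers of wild-type C57BL/6 mice that had received vehicle injections were compared with livers of wild-type C57BL/6 mice that were not injected, across all genes. The 2 groups were defined by the sample labels, and the comparison was chosen with earlier results of these data known. It used 8 of the 19 libraries of the series, 4 in each group. The non-injected mice are labelled as the normal control. The vehicle mice received 2 intraperitoneal doses of vehicle 3 h apart, and their livers were taken 6 h after the first dose. In the rest of the series, furosemide, a loop diuretic, replaced the vehicle at 4 mg a dose to give pre-renal azotemia (PRA), in WT mice (4 libraries) and in IL-6 knockout mice (3 libraries), and 4 IL-6 knockout libraries came from vehicle-injected mice. The composition of the vehicle, the clock time and feeding state at harvest, and the age and sex of the mice are not given in the labels used here. Nor do they say that the 4 libraries of a group come from separate animals. The p-values below therefore measure the spread between libraries within groups, estimated over all 19 libraries, which may be technical.

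Restraint and needle entry into the peritoneum activate the adrenal axis and release glucocorticoids, which act in hepatocytes through the glucocorticoid receptor. Known hepatic targets of the receptor include the co-chaperone Fkbp5 and the metallothioneins, small cysteine-rich proteins that bind zinc and copper and are also induced by the metal-sensing factor MTF1. The liver also answers injury and cytokines with the acute phase response, a shift in the secretion of plasma proteins that IL-6 drives through STAT3.

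The 8 libraries held 43110725 to 74041441 counts in genes. All 10 hepatocyte markers (Alb, Apoa1, Hnf4a and others) were measured, with a summed level of 73638 to 80595 CPM without injection and 76582 to 98457 CPM after vehicle, and none of them was called. CPM are counts per 1000000 counts in genes, with library totals adjusted by TMM factors. The share of unaligned reads was 2.80% to 3.16% in the normal libraries and 2.16% to 2.48% in the vehicle libraries. These ranges did not overlap (exact two-sided permutation test, p = 0.0286, the smallest that 4 against 4 can give; 0.257 after Benjamini-Hochberg adjustment over 9 library measures). Kidney transcripts stood out in 1 library: Kap had 312 counts and Slc34a1 had 73 counts in vehicle replicate 2, against at most 6 and 4 counts in any other of the 8. In bulk tissue, fewer cells of a type and less RNA per cell cannot be told apart.

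Of 15570 genes tested, 311 (2.00%) differed between the groups at an adjusted p of 0.05 or less (edgeR's quasi-likelihood test, Benjamini-Hochberg adjustment over all genes). After vehicle 183 genes were higher (1.18%) and 128 lower (0.822%), and these are the genes referred to as called. These shares are the background for every count of called list members below. A change of 2-fold or more was seen in 57 of the higher and 37 of the lower genes. The median log2 fold change was 0.74 among the higher genes, −0.69 among the lower genes and 0.01 over all genes tested. Without regard to the test, the CPM of the 4 vehicle libraries lay above all 4 normal libraries for 738 genes (4.74%) and below them for 589 genes (3.78%). Of the called genes, 173 of 183 higher and 124 of 128 lower ones had no overlap. Against a threshold of 1.5-fold (glmTreat), 6 genes were higher and 7 lower. The higher ones were Mt2, Mt1, Fkbp5, Retreg1, Chil3 and the predicted gene E230001N04Rik. Chil3 had at most 3 counts in any normal library. The lower ones were Pfkfb3, Lars2, Rpph1 and 4 genes without a symbol. A difference in library preparation, which cannot be told apart from the injection, is taken up below for Lars2, Rpph1 and genes without a symbol.

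**Figure D1:**
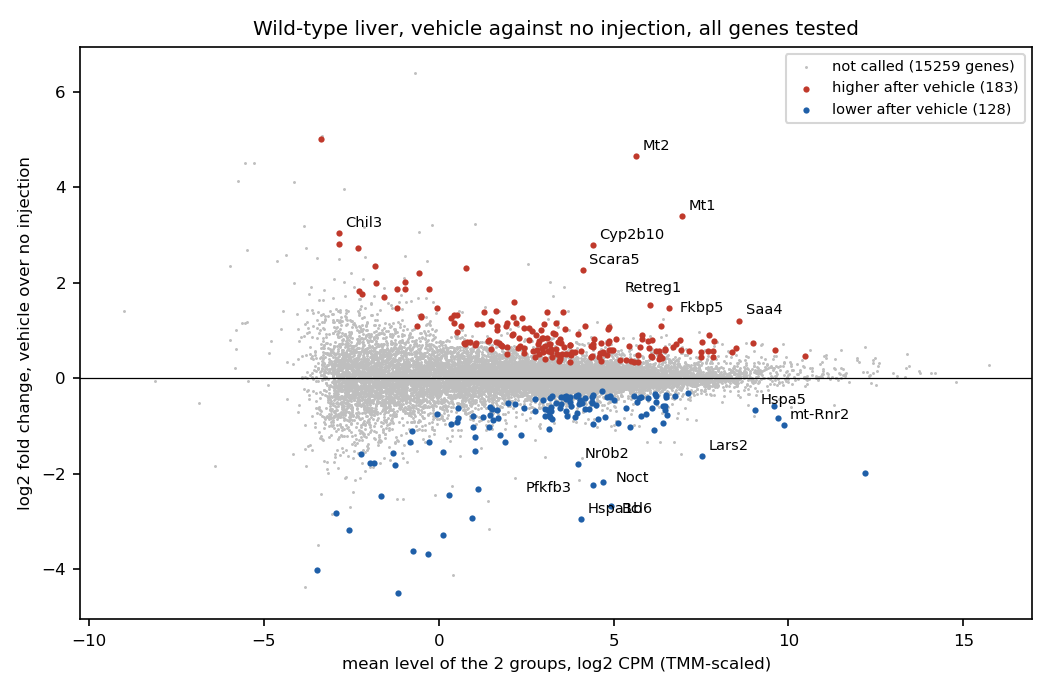
Log2 fold change of vehicle over no injection (y axis) against the mean level of both groups in log2 CPM (x axis) for the 15570 genes tested. Red points are the 183 genes called higher and blue points the 128 called lower; Mt2 and Mt1 lie farthest above 0 among genes of more than a few CPM.

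The rise of the metallothioneins was the largest in the comparison among genes of at least 2 CPM, and both genes lie side by side on chromosome 8. The bases before their starts are shown because metallothionein promoters are the standard example of metal response elements. Capitals mark each match to TGCNCNC on either strand, where N is any base, and no match overlaps another. This pattern is looser than the element's core, which takes only A or G at the first N. Some of the marked matches have another base there and are not the core. Sequences are RefSeq's for build GRCm38.p6, 250 bases ending at the base before the gene's start, on the plus strand at chr8:94172368-94172617 for Mt2 and chr8:94178839-94179088 for Mt1.

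Mt2: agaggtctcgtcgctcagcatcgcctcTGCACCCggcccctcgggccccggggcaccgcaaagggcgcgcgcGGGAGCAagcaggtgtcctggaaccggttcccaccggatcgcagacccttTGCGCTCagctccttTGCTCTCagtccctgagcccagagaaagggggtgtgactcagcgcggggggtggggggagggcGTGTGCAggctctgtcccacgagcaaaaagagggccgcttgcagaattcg

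Mt1: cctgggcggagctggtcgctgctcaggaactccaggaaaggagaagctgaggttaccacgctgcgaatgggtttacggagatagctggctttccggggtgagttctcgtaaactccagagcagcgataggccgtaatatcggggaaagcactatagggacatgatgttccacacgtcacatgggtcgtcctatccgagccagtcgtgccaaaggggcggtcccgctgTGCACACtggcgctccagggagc

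Mt2 holds 5 matches in these bases and Mt1 holds 1. With the 50 bases after the start included, the counts were 6 and 3. A single match is common, since 51.0% of 32851 promoters of 300 bases hold at least 1, while 2.30% hold 4 or more. A match describes letters and does not show binding.

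Mt2 stood at 3.39, 3.68, 4.23 and 4.02 CPM in normal replicates 1 to 4 and at 33.3, 103, 139.8 and 109 CPM in vehicle replicates 1 to 4. Every vehicle library was far above every normal library, and vehicle replicate 1 was the lowest of the 4. The log2 fold change of Mt2 was 4.65 ± 0.46 (SE; edgeR, adjusted p = 8.68e-05). Mt1 had 19.4, 20.7, 20.8 and 25.05 CPM without injection and 79.8, 239.8, 342 and 243 CPM after vehicle. It followed the same order of libraries as Mt2 within the vehicle group, and its log2 fold change was 3.40 ± 0.39 (edgeR, adjusted p = 0.000416). In a list of 8 metallothionein and zinc transport genes, 3 rose and none fell. The third was Slc39a4, the zinc importer ZIP4, which went from 40.4 ± 11.9 to 71.7 ± 3.84 CPM (SD, n = 4; log2 fold change 0.83, edgeR adjusted p = 0.0304). That call was lost when any 1 of 6 libraries was left out, namely normal replicate 3 or 4 or any vehicle library, and when only the 8 were fitted. Mtf1, which encodes the metal-sensing factor, had a log2 fold change of −0.29 (edgeR, adjusted p = 0.15) and was not called.

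Fkbp5, which encodes a co-chaperone that lowers the hormone affinity of the glucocorticoid receptor, was at 43.7, 50.3, 48.3 and 60.6 CPM without injection. After vehicle it was at 129, 137, 122 and 178 CPM. The groups did not overlap and the lowest vehicle library was above the highest normal library by more than the spread within either group. Its log2 fold change was 1.48 ± 0.16 (edgeR, adjusted p = 5.73e-05). Map3k6, a stress-activated kinase of the ASK family, rose from 2.197 ± 0.66 to 6.66 ± 1.97 CPM (log2 change 1.59 with adjusted p = 0.00767 in edgeR). Its relative Map3k5 (ASK1), outside the list, rose from 21.5 ± 1.09 to 35.9 ± 1.34 CPM (log2 change 0.74 with adjusted p = 0.00081 in edgeR).

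Most textbook targets of the glucocorticoid receptor were not called, and their log2 fold changes had both signs. Of 26 glucocorticoid-responsive genes, 4 rose (Fkbp5, Mt1, Mt2 and Map3k6), none fell and 22 were not called, with a median log2 fold change of 0.34. The change was positive for 16 of the 26. With no overlap between groups, 9 were higher, against 4.74% of all genes, and 1 was lower, against 3.78%. The 9 include Mt1 and Mt2, described above, and Il1r2. The means of Il1r2, 0.0052 and 0.0397 CPM, lay below the depth limit of 0.0405 to 0.0696 CPM. The lower one was Dusp1, with means of 89.1 CPM without injection and 35.4 CPM after vehicle (log2 change −1.33 with adjusted p = 0.0712 in edgeR). Among the uncalled members, the transcription factor Klf9 had 59.5 ± 4.90 and 88.9 ± 17.4 CPM with no overlap (log2 change 0.58 with adjusted p = 0.0583 in edgeR), and the cell cycle inhibitor Cdkn1a (p21) had 3.59 ± 0.91 and 14.4 ± 9.32 CPM with no overlap (log2 change 2.00 with adjusted p = 0.154). Zbtb16, a transcription factor, had 5.01 ± 3.05 and 18.96 ± 20.3 CPM, which overlapped. Tsc22d3, which encodes the anti-inflammatory protein GILZ, had 57.0, 137, 197 and 71.4 CPM without injection and 57.2, 49.6, 41.5 and 35.1 CPM after vehicle. Its normal libraries spread widely, vehicle replicate 1 was level with the lowest of them, and the difference was not called (log2 change −1.33 with adjusted p = 0.0755 in edgeR), although DESeq2 and the fit without normal replicate 1 called it. Per1, a clock gene that glucocorticoids induce, had a log2 fold change of −0.41 (edgeR, adjusted p = 0.641). Sgk1, a kinase of ion transport, had −0.64 (edgeR, adjusted p = 0.315), and Ddit4, an inhibitor of mTORC1, had −0.55 (edgeR, adjusted p = 0.508). Tat, an amino acid breakdown enzyme, ranged from 905 to 2549 CPM without injection and from 749 to 2027 CPM after vehicle.

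**Figure D2:**
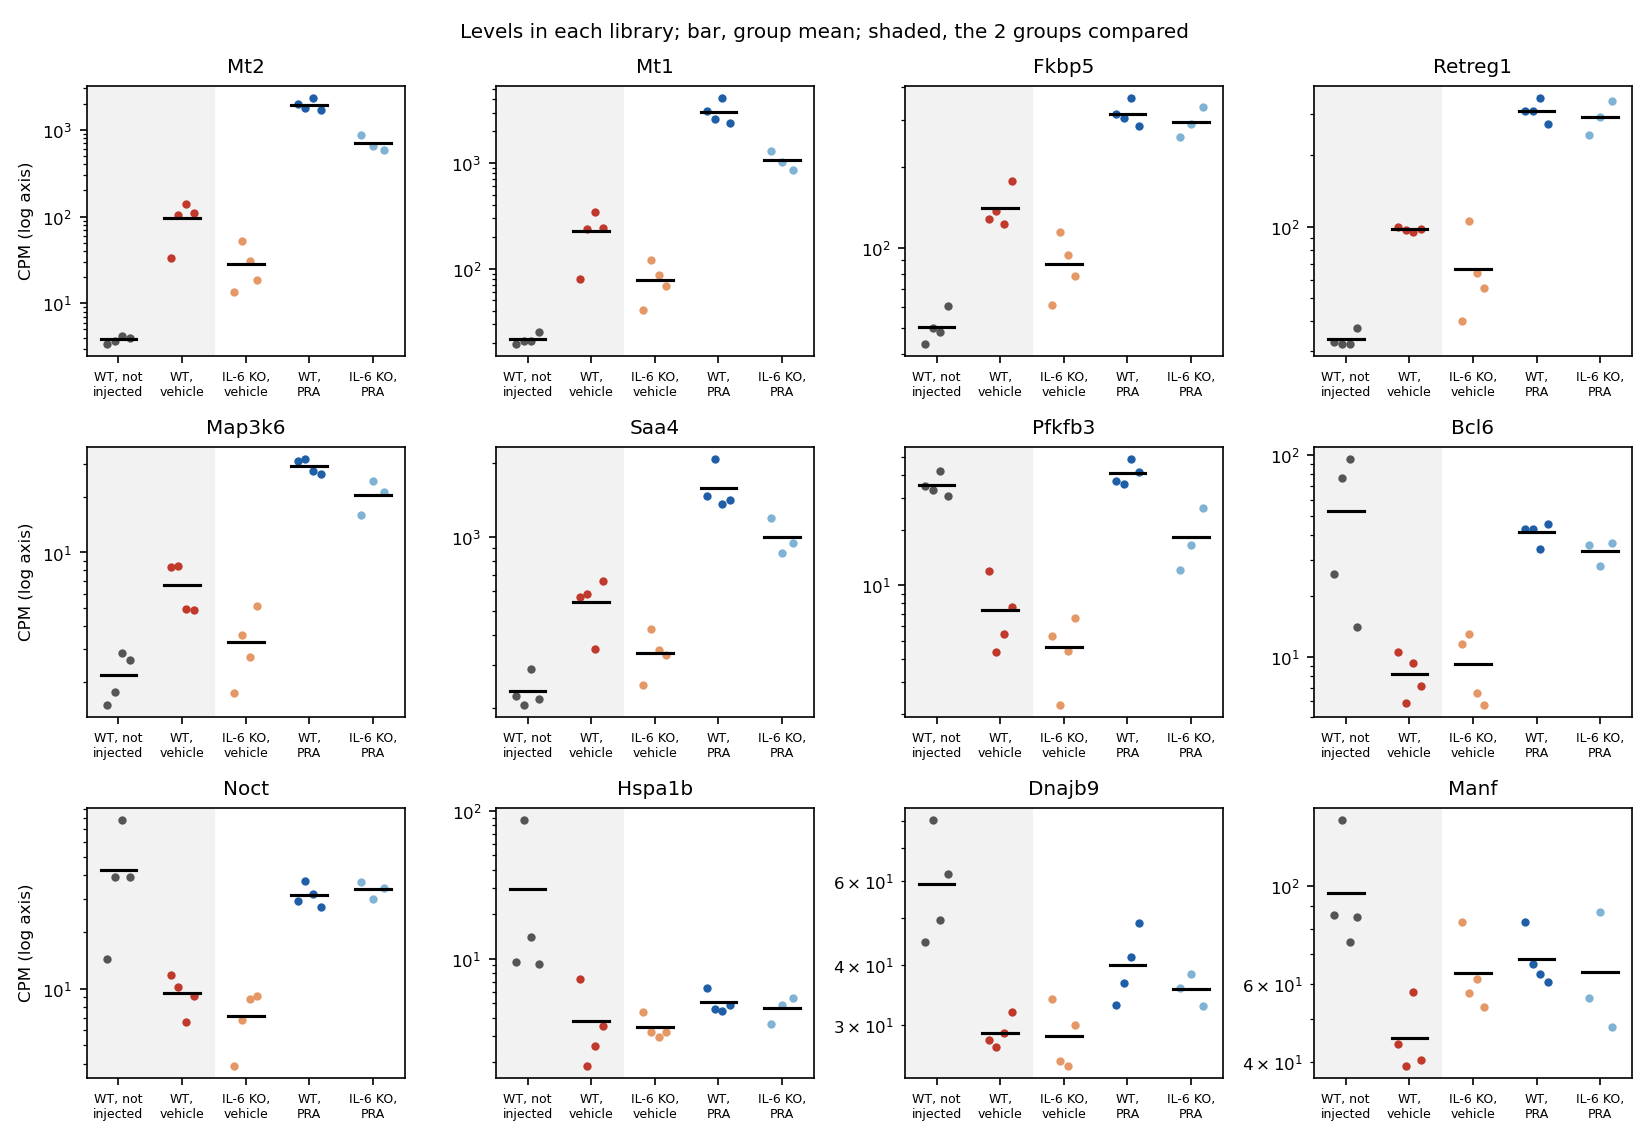
CPM on a log axis of 12 genes in every library of the 5 groups, with 1 point per library and a bar at the group mean; the shaded groups are those compared. Mt2 and Fkbp5 rise from the non-injected to the vehicle group with no overlap, while Pfkfb3, Bcl6 and Noct fall.

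Pfkfb3, the inducible enzyme that makes fructose 2,6-bisphosphate and so speeds glycolysis, showed one of the strongest falls. It had 34.7, 32.8, 41.8 and 30.6 CPM without injection and 12, 4.32, 5.42 and 7.598 CPM after vehicle. The highest vehicle library, replicate 1, was below the lowest normal library. The log2 fold change was −2.24 ± 0.33 (edgeR, adjusted p = 0.0025). Pfkfb1, the liver form of the same enzyme, moved the other way, from 42.1 ± 7.66 to 66.0 ± 3.52 CPM (log2 change 0.65 with adjusted p = 0.0119 in edgeR). The glucose transporter Slc2a1 rose from 8.02 ± 0.39 to 12.2 ± 1.129 CPM (log2 change 0.61 with adjusted p = 0.0464 in edgeR), a call lost without any 1 of the 8 libraries. In all, 2 of 26 glycolysis and hypoxia genes rose and 1 fell, with a median log2 fold change of −0.01.

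Transcriptional repressors and a clock-controlled enzyme fell alongside Pfkfb3. Bcl6, a transcriptional repressor that acts against STAT5 in liver, had 25.7, 77.1, 95.2 and 14.1 CPM without injection and 10.6, 5.91, 9.30 and 7.16 CPM after vehicle. The normal libraries differed among themselves by more than 6-fold, yet the lowest of them was still above the highest vehicle library. Its log2 fold change was −2.69 ± 0.48 (edgeR, adjusted p = 0.0104). Noct, the clock-controlled phosphatase nocturnin, went from 14.3, 39.0, 78.1 and 39.0 CPM to 11.8, 10.2, 6.61 and 9.16 CPM. Normal replicate 1 was close to the vehicle range, and the log2 fold change was −2.17 ± 0.38 (edgeR, adjusted p = 0.00905). Nr0b2, the bile acid-induced repressor SHP, overlapped between groups, with normal replicate 1 at 7.40 CPM against 3.37 to 9.97 CPM after vehicle. The other normal libraries had 23.8 to 34.5 CPM, and the log2 fold change was −1.79 ± 0.42 (edgeR, adjusted p = 0.0374). The calls of Bcl6 and Noct were lost when only the 8 libraries were fitted, and that of Nr0b2 was lost in addition under the replicate block and without any 1 of 6 libraries.

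None of 18 core clock genes was called, and in the 15 clock output factors only Noct was. Vehicle replicate 1 stood at one end for several of them. Dbp, an output factor, had 41.3 CPM there against 142 to 228 CPM in the other vehicle libraries and 124 to 229 CPM in the normal ones. Arntl (BMAL1), which peaks when Dbp is low, had 9.53 CPM there against 1.87 to 5.04 CPM in the other vehicle libraries and 0.93 to 2.97 CPM in the normal ones. Per2 had a log2 fold change of −0.93 ± 0.28 (edgeR, adjusted p = 0.105), and was called lower with DESeq2, with limma-voom, under the replicate block and without vehicle replicate 4 (adjusted p of 0.00873 at the lowest). A difference in clock time or feeding between the groups was not tested.

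Of 32 positive acute phase genes tested, 5 rose, none fell, 31 had a positive log2 fold change and 16 had no overlap between groups, against 4.74% of all genes. The median log2 fold change was 0.52, against 0.01 over all genes tested. Their summed level was 36937 to 45478 CPM without injection and 49701 to 53966 CPM after vehicle. Saa4, the constitutive serum amyloid A carried on HDL, had 224, 206, 289 and 218 CPM without injection and 567, 585, 349 and 661 CPM after vehicle. No vehicle library fell within the normal range (log2 change 1.20 ± 0.19 with adjusted p = 0.0025 in edgeR). The protease inhibitor genes Serpina3n and Serpina3m rose by 0.73 ± 0.12 and 0.90 ± 0.14 on the log2 scale (edgeR, adjusted p = 0.0025 and 0.00178). Itih3 and Itih4, heavy chains of the inter-alpha-trypsin inhibitor family, rose by 0.59 and 0.47 (edgeR, adjusted p = 0.00644 and 0.012). The classic inducible members were not called in the test over all 19 libraries: Saa1 had 41.6 to 60.2 CPM without injection and 69.0 to 187 CPM after vehicle (edgeR, adjusted p = 0.0881). Haptoglobin (Hp) had 2295 ± 221 and 3479 ± 451 CPM (edgeR, adjusted p = 0.133), and the iron-siderophore binder Lcn2 had 3.07 ± 0.43 and 6.51 ± 0.92 CPM (edgeR, adjusted p = 0.115). None of these ranges overlapped between groups. Saa2, of the same family as Saa1, did overlap, with 14.4 to 27.6 CPM without injection and 19.4 to 68.6 CPM after vehicle. It was not called (edgeR, adjusted p = 0.504), nor did any alternative run call it. DESeq2 called Saa1 and Lcn2, the replicate block called Lcn2, and the fit of only the 8 libraries called Lcn2 and Hp (adjusted p = 0.00719 at the lowest for Lcn2 and 0.047 for Hp). Serpina3 and Saa family members share near-identical sequence. Reads that did not align uniquely stayed out of the counts, so reads of these members may be missing from their levels.

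Of 21 genes of IL-6 signalling through JAK and STAT3, 2 rose and none fell. Stat3, the transcription factor of the pathway, had 49.8, 50.3, 59.5 and 49.2 CPM without injection and 185, 81.7, 73.0 and 107 CPM after vehicle. Vehicle replicate 1 was the highest, and the log2 fold change was 1.10 ± 0.22 (edgeR, adjusted p = 0.013), which was 0.73 at the lowest when 1 library was left out. The kinase gene Pim1, a STAT3 target, rose from 18.8 ± 6.96 to 39.6 ± 5.95 CPM (log2 change 1.07 with adjusted p = 0.0166 in edgeR). The call of Stat3 was lost without normal replicate 2, that of Pim1 without normal replicate 2 or 3 or vehicle replicate 3, and both were lost when only the 8 libraries were fitted. Il6 itself had 7 counts in all over the 8 libraries and did not enter the test.

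Among 23 NF-kB targets and chemokines, 2 rose and 1 fell. Cxcl1, a neutrophil-attracting chemokine, had 8.60, 2.17, 4.06 and 3.97 CPM without injection and 12.7, 9.39, 14.4 and 12.4 CPM after vehicle. The gap between the groups was narrow, between normal replicate 1 and vehicle replicate 2 (log2 change 1.39 ± 0.33 with adjusted p = 0.0374 in edgeR), and the call was lost without any 1 of 7 libraries, under the replicate block and when only the 8 libraries were fitted. Ccl6, a chemokine of myeloid cells, went from 4.25 ± 1.37 to 8.44 ± 1.98 CPM (log2 change 0.99 with adjusted p = 0.0126 in edgeR), a call lost when only the 8 libraries were fitted. Nfkbia, the NF-kB inhibitor and target, fell from 49.2 ± 8.76 to 32.04 ± 1.33 CPM (log2 change −0.62 with adjusted p = 0.00384 in edgeR). None of 30 interferon response genes was called, and 25 had a negative log2 fold change (median −0.24). None of 29 complement genes was called either. Of these, 22 had a positive log2 fold change (median 0.08), and 5 were higher with no overlap, against 4.74% of all genes. Their summed level was 15470 to 16296 CPM without injection and 17444 to 18020 CPM after vehicle.

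Markers of blood and other liver cells are given beside these lists, and 1 of them was called. Of 14 neutrophil markers, 8 had enough counts to test, none was called and Ly6g had no count in any of the 8 libraries. Those 8 all had a positive log2 fold change (median 0.78), and the summed level of the 14 was 33.8 to 177 CPM without injection and 88.3 to 228 CPM after vehicle. Of 13 monocyte markers, Chil3 alone was called (edgeR, adjusted p = 0.00349). It had 1, 1, 2 and 3 counts without injection and 38, 10, 10 and 10 counts after vehicle. Its normal levels of 0.018 to 0.052 CPM were too low to enter the test, so it entered through the injected groups, where it was higher. A rise was thus the only call it could give. Chil3 encodes a chitinase-like protein of myeloid cells. The summed level of the monocyte markers, which include fibronectin (Fn1), was 977 to 1042 CPM without injection and 1054 to 1394 CPM after vehicle. Which cells the RNA in these sums came from was not tested. None of 14 Kupffer cell, 17 sinusoidal endothelial, 15 stellate cell or 9 tested cholangiocyte markers was called. The log2 fold change was positive for 12 of the Kupffer cell markers (median 0.32), all 17 endothelial markers (median 0.24) and 10 of the stellate cell markers (median 0.11). It was negative for 8 of the 9 cholangiocyte markers (median −0.89), whose summed level was 114.6 to 155 CPM without injection and 82.5 to 127 CPM after vehicle. Their part in the chemokine and acute phase results was not tested.

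Of 25 heat shock genes, 4 fell after vehicle, and normal replicate 2 stood apart for them. Heat shock proteins are chaperones that refold proteins and are induced by the factor HSF1. Hspa1b, the stress-inducible HSP70, carries 1 match to the heat shock element core GAANNTTC, in capitals, in the 250 bases before its start, at chr17:34959239-34959488 on the minus strand (RefSeq, GRCm38.p6).

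Hspa1b: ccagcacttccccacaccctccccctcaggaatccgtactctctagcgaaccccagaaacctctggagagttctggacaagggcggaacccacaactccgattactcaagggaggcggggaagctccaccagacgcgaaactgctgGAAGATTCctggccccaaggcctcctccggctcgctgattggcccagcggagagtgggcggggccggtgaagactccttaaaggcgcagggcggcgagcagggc

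The neighbouring Hspa1a is identical to it at 247 of these 250 positions, and reads of the 2 genes may not be separable. The core was found in 7.86% of all promoters of 300 bases, and Dnajb1 had none in its window. Hspa1b had 9.56, 86.2, 14.0 and 9.17 CPM without injection and 7.24, 1.88, 2.57 and 3.49 CPM after vehicle. Normal replicate 2 was more than 6 times any other library. The log2 fold change of −2.95 ± 0.66 (edgeR, adjusted p = 0.033) became −1.51 without it. The call of Hspa1b was kept without normal replicate 2 and lost without vehicle replicate 2, 3 or 4 (edgeR, adjusted p = 0.101 at the highest). Dnajb1, the HSP40 partner of HSP70, had 24.6, 45.9, 23.1 and 18.5 CPM without injection and 14.6, 12.5, 14.5 and 15.6 CPM after vehicle (log2 change −0.97 ± 0.18 with adjusted p = 0.00954 in edgeR). Again normal replicate 2 was the highest. The call of Dnajb1 was kept whichever library was left out (edgeR, adjusted p = 0.0376 at the highest). Hspa8, the constitutive HSC70, fell from 932 ± 228 to 619.7 ± 43.7 CPM (log2 change −0.59 with adjusted p = 0.0286 in edgeR). Bag3, a co-chaperone of HSP70, fell from 76.3 ± 28.1 to 45.6 ± 2.66 CPM (log2 change −0.74 with adjusted p = 0.0165 in edgeR). Over the list of 25, none rose and 22 had a negative log2 fold change, with a median of −0.30. Left-out libraries gave 1 to 5 calls: 3 without normal replicate 2, 2 without vehicle replicate 2 or 4, and 1 without vehicle replicate 3. None of the 4 was called when only the 8 libraries were fitted, and Hspa1b and Hspa8 were not called under the replicate block.

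Chaperones of the endoplasmic reticulum (ER) fold secreted proteins and are induced when such proteins accumulate unfolded. Of 31 ER stress and unfolded protein response genes, 5 fell, none rose and the median log2 fold change was −0.21. Dnajb9, an ER co-chaperone induced through IRE1, had 44.6, 80.2, 49.6 and 62.0 CPM without injection and 27.9, 26.9, 28.8 and 31.9 CPM after vehicle. The vehicle libraries were close together and all below the normal ones (log2 change −1.03 ± 0.15 with adjusted p = 0.00178 in edgeR). Manf, a secreted ER stress protein, had 85.7, 140.7, 74.7 and 84.9 CPM without injection and 43.9, 39.2, 57.6 and 40.5 CPM after vehicle (log2 change −1.09 ± 0.21 with adjusted p = 0.0126 in edgeR). Hspa5, the main ER chaperone BiP, fell by 0.67 on the log2 scale (edgeR, adjusted p = 0.0259). Syvn1, a ligase that marks misfolded ER proteins for breakdown, fell by 0.66 (edgeR, adjusted p = 0.0333), and the sensor kinase Eif2ak3 (PERK) fell by 0.52 (edgeR, adjusted p = 0.0404). Normal replicate 2 was the highest library for the first 4 of these genes. Without it the log2 fold changes stayed negative, 2 members were called, and Hspa5 and Syvn1 were not; 2 were also called without vehicle replicate 2 and when only the 8 libraries were fitted.

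**Figure D3:**
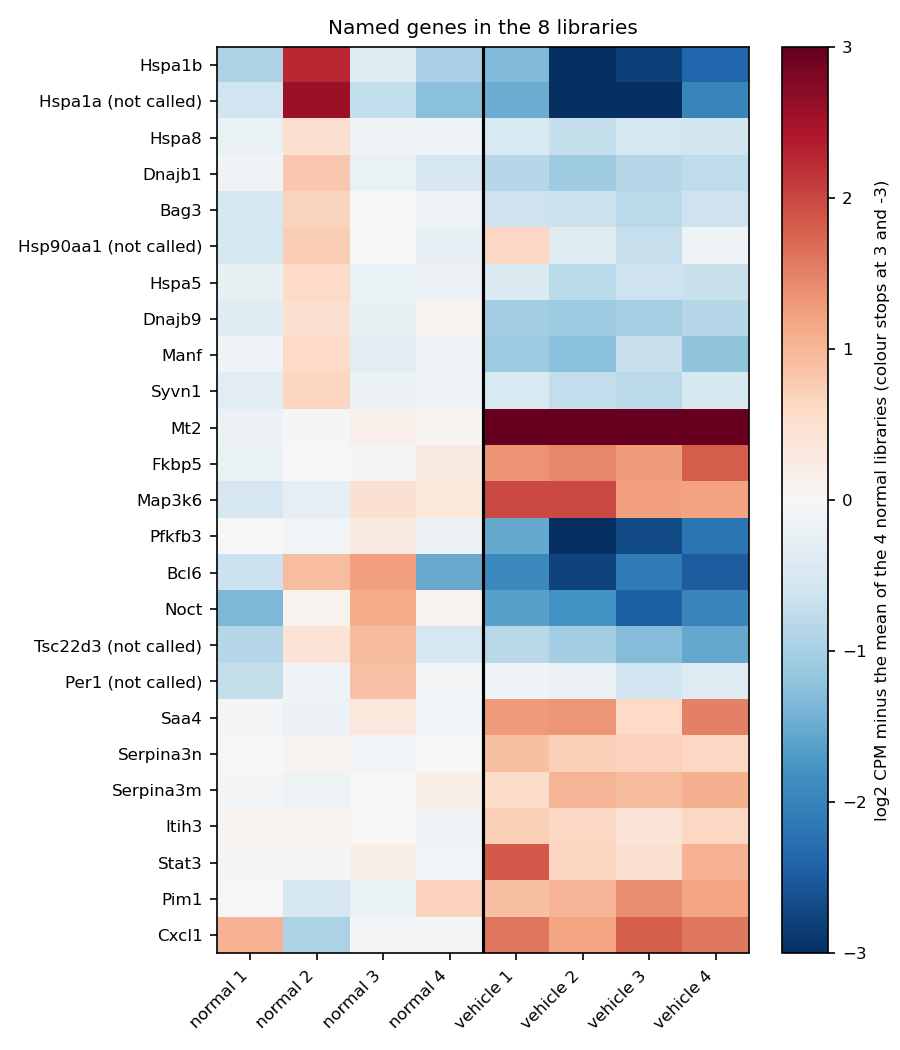
Log2 CPM of 25 named genes in each of the 8 libraries, minus the mean log2 CPM of the 4 normal libraries; red is above and blue below that mean, and colour stops at 3 and −3. Normal replicate 2 is red across the chaperone genes at the top, and the 4 vehicle libraries are red for Mt2, Fkbp5 and the acute phase genes.

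Immediate early genes, which mark recent stimulation of cells, did not rise as a group. Of 25 tested, 1 rose, 1 fell and the median log2 fold change was −0.43. The riser was the AP-1 subunit Fosl2, from 4.40 ± 0.88 to 7.62 ± 2.19 CPM (edgeR, adjusted p = 0.0258), a call lost without any 1 of 5 libraries. The one that fell was Klf2, a transcription factor of endothelial cells, from 12.3 ± 2.10 to 6.73 ± 1.83 CPM (edgeR, adjusted p = 0.0161), a call lost without normal replicate 1 or 2 or vehicle replicate 2. Both calls were lost when only the 8 libraries were fitted. Fos had 14.6 CPM in normal replicate 1 and at most 1.64 CPM in the 7 other libraries, and was not called (edgeR, adjusted p = 0.111), although DESeq2 called it.

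Genes of drug metabolism were among the higher ones. Cyp2b10, the classic target of the receptor CAR, had 2.91, 3.15, 6.97 and 8.56 CPM without injection and 35.6, 51.8, 24.9 and 37.2 CPM after vehicle. The gap between the groups was wide, with a log2 fold change of 2.78 ± 0.63 (edgeR, adjusted p = 0.0356), but the call was lost without any 1 of 7 libraries and under the replicate block. Cyp3a13 rose from 86.5 ± 7.76 to 150.6 ± 20.3 CPM (log2 change 0.80 with adjusted p = 0.0032 in edgeR). Nr1i2, the xenobiotic receptor PXR, rose from 57.7 ± 7.34 to 78.5 ± 8.07 CPM (log2 change 0.44 with adjusted p = 0.0146 in edgeR), a call lost without normal replicate 1 or 2 and when only the 8 libraries were fitted. In this list of 23 tested genes, 3 rose, none fell and the median was 0.39. Acox2, a peroxisomal oxidase of bile acid synthesis, rose by 0.56 on the log2 scale (edgeR, adjusted p = 0.00594).

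Several lists of fuel metabolism had no called member. Over all genes tested 2.00% were called, a share at which many lists of this size would hold no call. None of 24 gluconeogenesis and fasting genes was called, and Pck1, which commits carbon to gluconeogenesis, had 2408 ± 737 CPM without injection and 2767 ± 431 CPM after vehicle. The same held for 24 insulin-induced and lipogenic genes. No member was called in 24 cholesterol synthesis and uptake genes, 33 PPAR-alpha and fatty acid oxidation genes or 17 urea cycle genes, and 16 of these 17 had a positive log2 fold change (median 0.20). Amino acid catabolism had no called member among 35 tested, although 30 had a positive log2 fold change (median 0.19). Of the 45 lists, 27 had no call, 15 of them on functions and 12 on cell types.

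**Figure D4:**
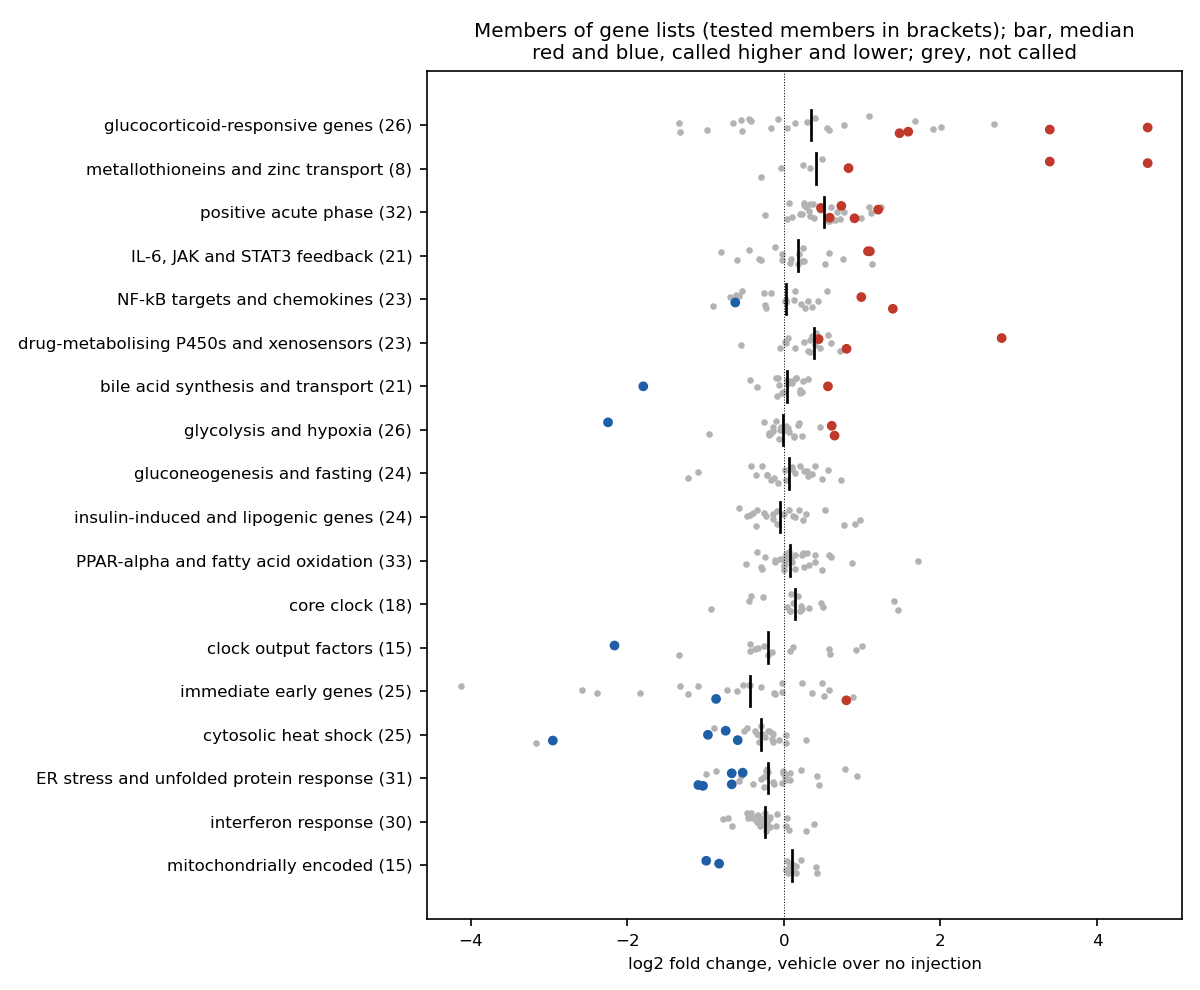
Log2 fold change of vehicle over no injection (x axis) for every tested member of 18 gene lists (rows, with the number tested); red and blue points are called higher and lower, grey points are not called, and bars are list medians. The acute phase points lie mostly right of 0, and the heat shock and ER stress points mostly left of 0.

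Genes with the largest changes or the smallest p-values are given next, most of them outside the lists. Retreg1, a receptor for autophagy of the ER, had 32.8, 32.2, 32.1 and 37.6 CPM without injection and 100.01, 97.1, 95.2 and 97.9 CPM after vehicle. Its vehicle libraries lay within 5 CPM of one another (log2 change 1.54 ± 0.19 with adjusted p = 0.000406 in edgeR). Scara5, a ferritin receptor, had 2.84, 9.46, 4.49 and 7.44 CPM without injection and 54.9, 23.9, 14.0 and 23.0 CPM after vehicle (log2 change 2.26 ± 0.40 with adjusted p = 0.00989 in edgeR). Vehicle replicate 1 was the highest. The smallest p-values belonged to modest changes: Slc8b1, the mitochondrial sodium-calcium exchanger, rose from 38.8 ± 4.73 to 73.0 ± 5.40 CPM, and Tcp11l2 rose from 11.04 ± 0.96 to 20.8 ± 2.58 CPM (edgeR, adjusted p = 2.8e-05 for each). Myo1e, an unconventional myosin, rose by 0.78 on the log2 scale (edgeR, adjusted p = 0.000441), and Zc3h12d, an RNase of the regnase family, rose by 1.28 (edgeR, adjusted p = 0.00103). Etv5, an ETS transcription factor, rose from 1.33 ± 0.31 to 2.92 ± 0.37 CPM (edgeR, adjusted p = 0.00178). Fbxo32, a ubiquitin ligase subunit that FOXO factors induce, rose by 1.14, and F11, coagulation factor XI, by 0.59 (edgeR, adjusted p = 0.0104 for each). On the other side, the surface protein gene Cd276 fell from 7.10 ± 1.03 to 3.09 ± 0.62 CPM (edgeR, adjusted p = 0.0025), and Vasn, which encodes a trap for TGF-beta, fell from 12.1 ± 3.61 to 5.84 ± 0.34 CPM (edgeR, adjusted p = 0.00505). Cabyr fell by 1.34 (edgeR, adjusted p = 0.00397) and Bcl6b, a relative of Bcl6, by 1.24 on the log2 scale (edgeR, adjusted p = 0.0166). The calls of Scara5 and Bcl6b were lost when only the 8 libraries were fitted.

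Both mitochondrial rRNAs and the RNA of RNase P were lower in the vehicle libraries, which, per the labels' protocols, were prepared by poly(A) selection like the normal ones. The mitochondrial rRNAs fell, mt-Rnr1 from 1055 ± 132 to 595 ± 116 CPM (edgeR, adjusted p = 0.00222) and mt-Rnr2 from 1237 ± 171 to 622 ± 58.4 CPM (edgeR, adjusted p = 2.8e-05). The 13 mitochondrial mRNAs did not follow: none was called and all had a positive log2 fold change, from 0.03 to 0.43. Lars2, a mitochondrial tRNA synthetase gene that shares sequence with mitochondrial rRNA, had 360.0, 281, 240.1 and 241 CPM without injection and 78.7, 98.1, 106 and 80.7 CPM after vehicle (log2 change −1.63 ± 0.20 with adjusted p = 0.000357 in edgeR). Rpph1, the RNA of RNase P, had 1.98 ± 0.64 and 0.21 ± 0.10 CPM (edgeR, adjusted p = 0.00232). The most abundant called gene, ENSMUSG00000119584, for which the name table used has no symbol, fell from 7491 ± 1401 to 1897 ± 476 CPM (edgeR, adjusted p = 0.00178). Of 28 tested genes with no symbol, 5 fell and none rose. Among them, ENSMUSG00000118866, ENSMUSG00000118841 and ENSMUSG00000119895 went from means of 0.86, 1.11 and 0.55 CPM to 0.036, 0.091 and 0.094 CPM. With vehicle levels that low, these genes may have entered the test through the normal libraries, where a fall is the likelier call. The means of ENSMUSG00000119584 and of mt-Rnr2 were also lower in the other injected groups. Mean levels of ENSMUSG00000119584 were 2950 CPM in WT PRA, 3149 CPM in knockout vehicle and 3359 CPM in knockout PRA. Those of mt-Rnr2 were 539 to 720.0 CPM in these groups. The labels give no preparation date. A difference in library preparation between the 2 groups and the injection therefore cannot be told apart, for these genes or for any other called gene. The part of preparation in the differences was not tested.

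**Figure D5:**
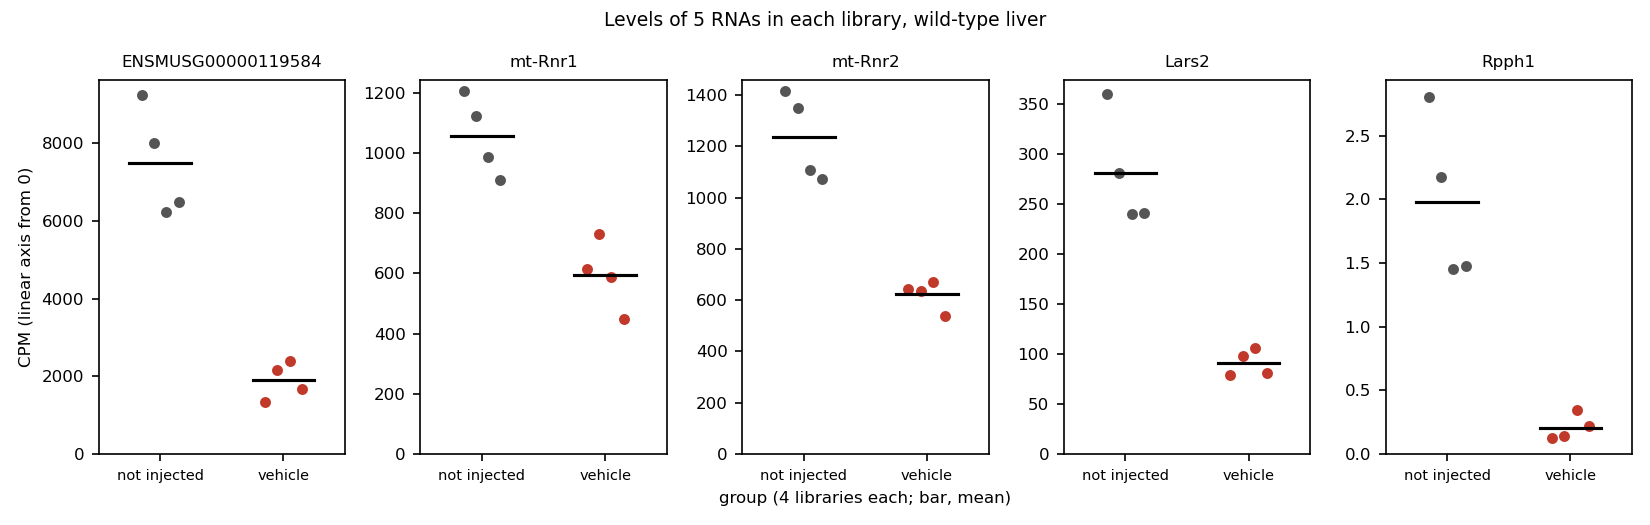
CPM on linear axes from 0 of 5 RNAs in each of the 4 non-injected and 4 vehicle libraries of wild-type mice, with bars at the group means. In each panel every vehicle library lies below every non-injected one.

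The other groups place the vehicle levels. Vehicle-injected IL-6 knockout mice can be set beside the same normal libraries, which both comparisons share, but they also differ in genotype. Mt2 was at 96.3 ± 44.9 CPM after vehicle in WT mice, 28.6 ± 17.1 CPM in knockout mice after vehicle, 1942 ± 283 CPM in WT PRA and 699.9 ± 146 CPM in knockout PRA. Against the normal libraries, its log2 fold change was 4.65 in WT and 2.90 in knockout vehicle mice. Fkbp5 was at 141 ± 24.9 CPM in WT and 87.0 ± 23.0 CPM in knockout vehicle mice, against 318 ± 32.7 CPM in WT PRA. The lower knockout vehicle levels of both genes were not tested against WT here. Pfkfb3 was at 7.34 ± 3.39 and 4.65 ± 1.85 CPM in the WT and knockout vehicle groups, and at 40.5 ± 5.84 CPM in WT PRA, where it lay near the 34.98 ± 4.86 CPM of the normal group. Bcl6 and Noct were also low in both vehicle groups and higher in WT PRA, where, unlike that of Pfkfb3, their means lay below those of the normal group (53.01 and 42.6 CPM). They had 8.23 ± 2.09 and 9.44 ± 2.17 CPM after vehicle in WT, 9.21 ± 3.58 and 7.15 ± 2.40 CPM in knockout vehicle, and 41.3 ± 4.94 and 31.3 ± 4.44 CPM in WT PRA. Cxcl1 was at 12.2 ± 2.09 CPM in WT vehicle and 4.06 ± 1.12 CPM in knockout vehicle, where its log2 fold change against normal was −0.20. Hspa1b was low in all 4 injected groups, with means of 3.44 to 5.06 CPM.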

How the data were processed

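RNA sequencing of mouse liver was analysed from the raw counts per gene that the authors deposited. Per the submitters' processing notes, the tools were HISAT2 2.2.1, HTSeq 0.11.3 and SAMtools 1.13 on GRCm39. The annotation release and the use of strand in counting are not stated there. Reads of overlapping, antisense and near-identical genes therefore cannot be told apart. The table held 55416 gene lines, of which 52083 were matched to a symbol. The summary lines for reads in no gene stayed out of library sizes and tests: no feature (6.28% to 7.58% of the 8 libraries' records), not unique (14.07% to 16.59%), not aligned, low quality (4.50% to 4.77%) and ambiguous (0.58% to 0.64%).

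All 19 libraries were fitted in 1 model with 5 group means (edgeR 4.0.16 in R 4.3.3, filterByExpr, TMM, robust quasi-likelihood fit), and WT vehicle minus normal was tested. Depth gives a limit of 0.0405 to 0.0696 CPM for a gene with no count (3 counts), which covers counting error only. Replicates of a group differed by more than sampling noise. Alternatives were other scalings, filters and tests (glmTreat, DESeq2 1.42.0, limma 3.58.1), a replicate block, a fit of only 8 libraries, and each library left out.

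Genes were named by rule: the 12 largest rises and falls among called genes of at least 2 CPM without overlap, the 6 smallest p-values among the rest, 48 core genes and up to 4 called members of each of 45 lists. Not every gene the rule names is reported here. The comparison, lists and core genes were chosen with earlier results of these data known. Itih4, Eif2ak3, Klf9, Zbtb16, Dusp1, Mtf1, Il1r2, Rpph1, E230001N04Rik, the genes without a symbol and the kidney transcripts were named after their values were seen. Promoters came from RefSeq's table for GRCm38.p6 (75 of 97 named genes matched). The files' build differs, so no other coordinates are given.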

Additional observations from a re-analysis of the deposited data

Results flagged for a closer look

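In 194 gene-by-group sets of 4 libraries, 19 had 1 library whose distance to its nearest neighbour took up an unusually large share of the range (Dixon's 95% value for 4 samples), and about 1 in 20 such sets is marked by chance. Normal replicate 2 was marked high for 6 chaperone and ER genes, at 86.2 CPM for Hspa1b, 15.2 CPM for Hspa1a, 1272 CPM for Hspa8, 935 CPM for Hspa5, 141 CPM for Manf and 165 CPM for Syvn1. Normal replicate 1 was marked high for immediate early genes, at 14.6 CPM for Fos, 30.7 CPM for Egr1 and 5.71 CPM for Fosl2. Normal replicate 3 was high for Stat3 (59.5 CPM) and low for Fasn (437 CPM), and normal replicate 4 was high for Retreg1 (37.6 CPM).

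Vehicle replicate 1 was marked high for Atp2b2 (8.56 CPM), Tcp11l2 (24.6 CPM) and Chil3 (0.444 CPM). Vehicle replicate 4 was marked high for the PPAR-alpha targets Vnn1 (49.9 CPM) and Acot3 (48.5 CPM) and for Srebf1 (220.1 CPM). Vehicle replicate 3 was low for Bag3 (41.6 CPM). Among library measures, the share of records in genes was low in normal replicate 2 (68.61%) and high in vehicle replicate 4 (71.71%), and the share not uniquely aligned was high in normal replicate 2 (16.17%).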

How the results depend on the processing

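The test over all 19 libraries called 183 genes higher and 128 lower after vehicle, and no called gene changed direction under any alternative run. With 2372 genes at an unadjusted p under 0.05, the counts depend on the threshold and on the estimate of spread. The counts were 382 and 273 with DESeq2, 374 and 274 with limma-voom, 96 and 58 when only the 8 libraries were fitted, and 6 and 7 against a threshold of 1.5-fold, which is a stricter question by construction. The fit of only the 8 libraries kept 127 of the 311 calls. Leaving out 1 library gave 81 to 172 higher and 47 to 127 lower genes. The counts moved by over 1.5 times without normal replicate 2 (81 and 47) and without vehicle replicate 2 (119 and 60), the library with kidney transcripts. Replicate numbers did not pair the libraries: deviations of same-numbered libraries correlated at −0.22, −0.06, −0.21 and −0.10. A replicate block called 176 higher and 115 lower genes. Other scalings kept the direction and called counts of the acute phase, heat shock and ER stress lists. Of 56 named genes that were called, 38 kept the call whichever library was left out. Without a filter on low counts, among genes named above, the calls of Cyp2b10, Cxcl1, Hspa1b, Slc39a4, Nr0b2 and Syvn1 were lost. With upper-quartile scaling that of Slc2a1 was lost, and with limma-voom those of Hspa1b and Fosl2. Among uncalled genes, signs turned with limma-voom for Clock (−0.047), Ppargc1a (−0.041) and Cyp4a14 (−0.13), and with the replicate block for Ppargc1a (−0.014). With 1 library left out, log2 fold changes spanned 0 for Clock (−0.15 to 0.17), Ciart (−0.083 to 0.53), Igfbp1 (−0.010 to 0.63), Ppargc1a (−0.17 to 0.18), Tat (−0.45 to 0.22), Hsp90aa1 (−0.46 to 0.17), Acot3 (−0.33 to 2.10) and Cyp4a14 (−0.28 to 1.04). The cause of these moves was not tested.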
